A study of Mus musculus with 18 samples.

Results

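The 42 genes described here act in G2 and mitosis: kinases and cyclins that start division, checkpoint and anaphase genes, kinetochore and spindle genes, kinesin motors, condensin subunits and genes of cytokinesis. They were taken from a list of symbols, each matched to 1 Ensembl identifier among the 57010 genes of the count file, by a rule that uses no measured value, although the list was drawn up with earlier results of these data known, so the shares that passed are not independent of that choice. All 42 passed the filter on low counts, which kept 17531 genes. The counts came from polyadenylated RNA of brain endothelial cells isolated at postnatal day 57 (P57), in 18 libraries of 4 groups. All animals carried floxed alleles of Pdcd10 (Pdcd10fl/fl), the gene of the cerebral cavernous malformation protein CCM3, and the astrocyte ribosome reporter Aldh1l1-EGFP/Rpl10a. The design text gives 50 µg of 4-hydroxytamoxifen at postnatal day 1. The KO groups also carried Slco1c1-iCreERT2, a tamoxifen-regulated Cre driven by a gene of brain endothelium, and the flox groups lacked it. The design text also names Cre-bearing animals without injection as controls, and does not say whether any library came from them. Normoxia was 21% oxygen (flox libraries 1 to 4, KO libraries 1, 2, 4, 5 and 6), and hypoxia was 7 days at 12% oxygen (flox libraries 2 to 5, KO libraries 1 to 5). The labels number the libraries without saying that each came from a separate animal, so the p-values measure the spread between libraries, which may be partly technical.

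Mitosis begins when cyclin B and cyclin A activate the kinase Cdk1, supported by Plk1, the Aurora kinases and the transcription factor FoxM1. The spindle checkpoint then holds sister chromatids together until kinetochores are attached, after which Cdc20 and the anaphase-promoting complex release separase to cut them apart, and a contractile ring divides the cell. Transcripts of most of these genes are scarce in resting cells and accumulate late in the cell cycle, and adult brain endothelium is known to divide rarely. Many of their promoters hold the cell cycle genes homology region (CHR), with the core letters TTTGAA, close to the transcription start and 1 or more CCAAT boxes just upstream of it.

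Those motifs were looked for in the RefSeq promoters of build GRCm38.p6, each window running from 250 bases before to 50 bases after a transcription start. An entry was at hand for 35 of the 42 genes, in 37 windows, and both strands were searched. TTTGAA was present in 31 of the 37 windows (83.8%), against 17.9% of all 32851 promoter windows. CCAAT was present in 30 (81.1%, against 37.4%), at least 2 matches of CCAAT in 19 (51.4%, against 11.7%), and both motifs in 27 (73.0%, against 6.95%). TTTGAA began within the last 150 bases of the window in 29 (78.4%, against 8.01%). Neither motif contains the other, although neighbouring matches can share 1 or 2 bases and are then counted separately. A match is a description of the letters only. The windows of Cdk1, Ccnb2, Espl1 and Hmmr are shown because these 4 genes had some of the clearest genotype differences below, and that of Ncaph because its transcript moved the other way; capitals mark every match of TTTGAA or CCAAT on either strand (TTCAAA and ATTGG on the opposite one).
Cdk1 (chr10:69352863-69353162, minus strand): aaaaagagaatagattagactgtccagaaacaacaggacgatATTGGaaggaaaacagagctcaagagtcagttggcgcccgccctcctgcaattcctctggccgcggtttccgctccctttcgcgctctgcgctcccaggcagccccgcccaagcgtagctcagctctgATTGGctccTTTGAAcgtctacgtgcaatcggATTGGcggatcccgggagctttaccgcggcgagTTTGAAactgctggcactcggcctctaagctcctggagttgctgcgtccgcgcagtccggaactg
Ccnb2 (chr9:70421505-70421804, minus strand): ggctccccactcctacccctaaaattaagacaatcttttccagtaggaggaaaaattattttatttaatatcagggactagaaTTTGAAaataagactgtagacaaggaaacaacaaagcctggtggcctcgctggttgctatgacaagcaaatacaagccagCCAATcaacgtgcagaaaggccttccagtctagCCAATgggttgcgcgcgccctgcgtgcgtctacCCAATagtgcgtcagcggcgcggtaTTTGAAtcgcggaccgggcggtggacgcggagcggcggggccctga
Espl1 (chr15:102296043-102296342, plus strand): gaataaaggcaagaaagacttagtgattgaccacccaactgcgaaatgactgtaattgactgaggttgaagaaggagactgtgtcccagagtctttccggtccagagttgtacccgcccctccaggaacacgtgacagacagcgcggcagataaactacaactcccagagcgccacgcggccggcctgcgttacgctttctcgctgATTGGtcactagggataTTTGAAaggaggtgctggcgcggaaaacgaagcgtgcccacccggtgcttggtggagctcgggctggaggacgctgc
Hmmr (chr11:40733388-40733687, minus strand): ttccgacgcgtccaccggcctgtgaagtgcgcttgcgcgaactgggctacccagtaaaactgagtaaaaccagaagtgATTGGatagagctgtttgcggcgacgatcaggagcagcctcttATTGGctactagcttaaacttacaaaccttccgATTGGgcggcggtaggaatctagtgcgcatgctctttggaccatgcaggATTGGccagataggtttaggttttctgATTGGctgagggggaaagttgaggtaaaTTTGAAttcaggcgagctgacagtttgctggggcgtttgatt
Ncaph (chr2:127133905-127134204, minus strand): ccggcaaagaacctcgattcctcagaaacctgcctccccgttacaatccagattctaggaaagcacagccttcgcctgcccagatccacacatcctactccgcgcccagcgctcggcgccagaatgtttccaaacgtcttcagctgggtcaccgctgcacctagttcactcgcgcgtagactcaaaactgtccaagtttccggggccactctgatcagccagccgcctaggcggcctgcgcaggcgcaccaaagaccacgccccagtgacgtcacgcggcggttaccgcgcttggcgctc
The Cdk1 and Ccnb2 windows each held 2 TTTGAA and 3 CCAAT matches, Espl1 held 1 of each, and Hmmr held 1 TTTGAA and 5 CCAAT matches. The windows of Ncaph, Birc5 and Nuf2 held neither motif. In normoxia, KO against flox, the transcript of Ncaph fell, and those of Birc5 and Nuf2 rose.

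The libraries held between 17.9 and 31.2 M counts each. The endothelial genes Pecam1 (1032 to 2007 CPM, counts-per-million of the scaled library size) and Cldn5 (1313 to 2407 CPM) were abundant throughout. Pdcd10 stood at 30.6 to 60.9 CPM in the flox and 16.3 to 25.3 CPM in the KO libraries, so part of the transcript was left; its log2 fold change, KO minus flox, was -1.08 ± 0.14 (SE) in normoxia and -1.17 ± 0.14 in hypoxia (edgeR adjusted p = 5.02e-05 and 2.87e-05). Normoxia flox 4 and normoxia KO 4 stood apart through the neuronal gene Syt1, at 837.6 and 471.0 CPM against at most 8.675 CPM elsewhere. A mixture of Xist and Y-linked counts was found in normoxia KO 4 and in flox libraries 3 and 4 of normoxia. Y-linked genes exceeded Xist in 1 of 4 normoxia flox, 2 of 5 normoxia KO, 4 of 4 hypoxia flox and 1 of 5 hypoxia KO libraries. Where they did, the log2 difference was 4.67 in hypoxia flox 2, 6.08 in hypoxia flox 3 and at least 7.12 in the other libraries. Hypoxia flox 2 and 3 were not counted as mixed. Member counts with and without the libraries that stand apart are given with each comparison.

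The 42 genes were lowest in normoxia flox, higher in normoxia KO and highest in hypoxia. Their summed level was 184.3, 154.6, 136.5 and 176.1 CPM in the 4 normoxia flox libraries and 396.2, 282.7, 255.4, 390.4 and 406 CPM in the 5 normoxia KO libraries. It was 941.7, 775.9, 642.4 and 633.7 CPM in hypoxia flox and 360.9, 709.7, 378.6, 594.3 and 653.6 CPM in hypoxia KO. Every normoxia flox library lay below every library of the other groups, the normoxia KO and hypoxia flox ranges did not meet, and hypoxia KO spanned the gap between them. The group means were 162.9 ± 21.61 (SD, n = 4), 346.2 ± 71.25 (n = 5), 748.4 ± 144.3 (n = 4) and 539.5 ± 160.3 CPM (n = 5) in the same order. Relative to normoxia flox, the mean was 2.13 times as high in normoxia KO and 4.6 times in hypoxia flox; in hypoxia, KO was 0.721 times flox. In these bulk libraries, more dividing cells and more of these transcripts per cell cannot be told apart.

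**Figure D1:**
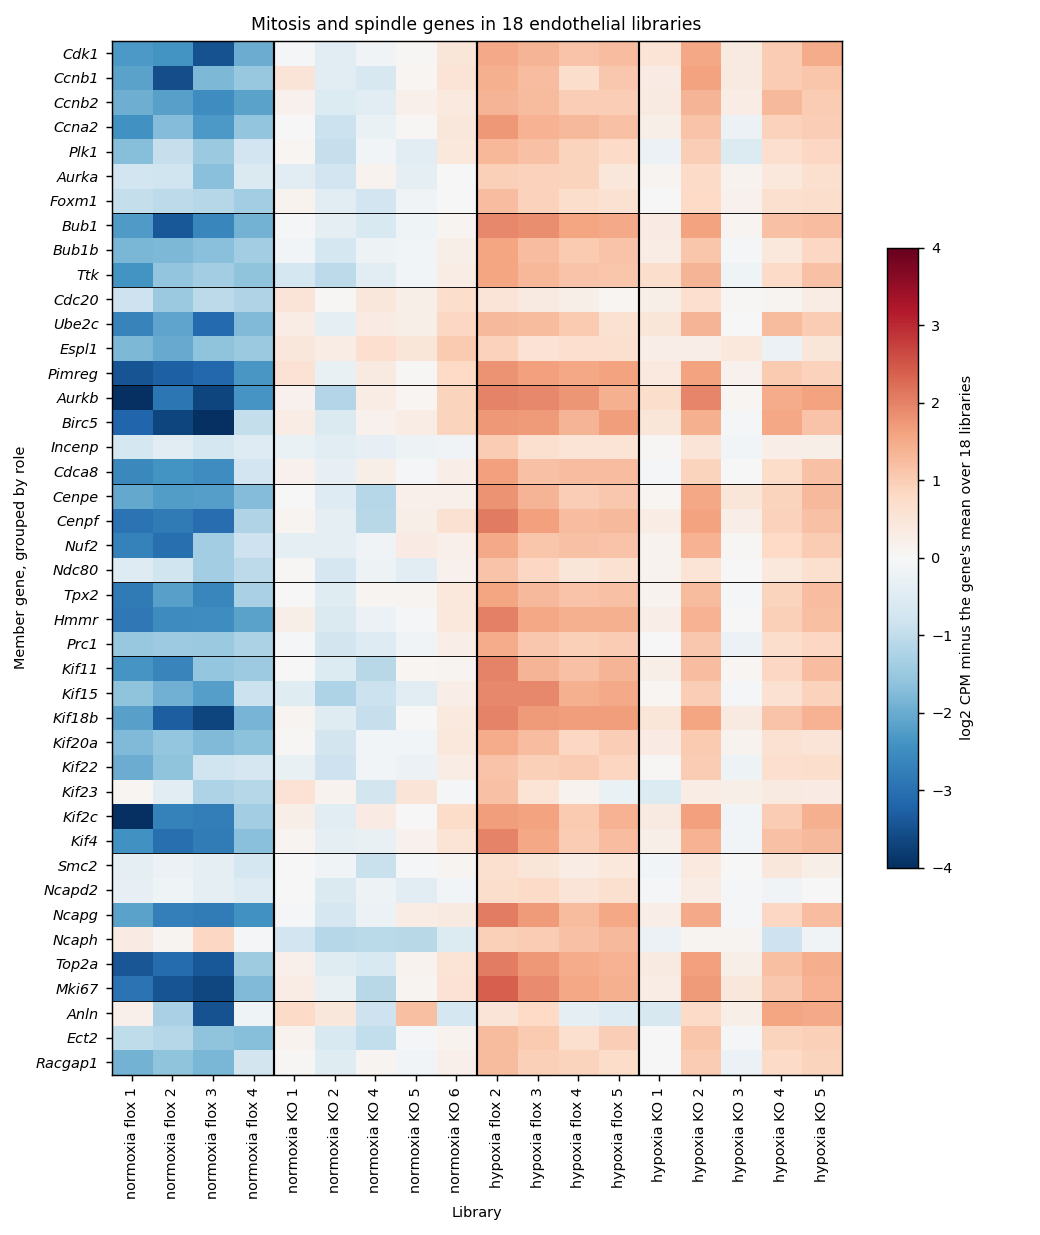
Level of each of the 42 genes (rows, grouped by role) in each of the 18 libraries (columns), as log2 CPM minus the gene's mean over all libraries. The 4 normoxia flox columns are the lowest for nearly all rows. The rows of Smc2 and Ncapd2 vary least, and those of Ncaph and Anln are among the rows that follow another order.

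Gene by gene, the mean CPM was lowest in normoxia flox for 41 of the 42 (Ncaph was lowest in normoxia KO) and highest in hypoxia flox for 40 (Cdc20 was highest in normoxia KO and Anln in hypoxia KO). The order normoxia flox, normoxia KO, hypoxia KO, hypoxia flox held for 38. Kif23, Smc2, Ncapd2, Ncaph and Anln, singled out after their values were seen, made up 51.0 to 68.4% of the summed CPM, which are not corrected for gene length, in the normoxia flox libraries, 27.3 to 43.4% in normoxia KO, 24.1 to 27.0% in hypoxia flox and 24.3 to 36.7% in hypoxia KO. Without them, the other 37 genes summed to 54.61 to 86.23 CPM in normoxia flox, 159.9 to 295.1 in normoxia KO, 473.4 to 714.9 in hypoxia flox and 239.5 to 537.4 in hypoxia KO. Per length, the mean level in normoxia flox was 4.38 RPKM (the CPM value per kilobase of transcript) for Ncaph, 3.69 for Ncapd2, 3.403 for Smc2, 3.25 for Cdc20, 2.72 for Kif23, 2.14 for Incenp and 2.05 for Anln, and below 0.8 for each of the other genes. In hypoxia flox, Mki67 had the highest mean level per length, 10.9 RPKM, followed by Cdc20 at 9.20 RPKM.

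**Figure D2:**
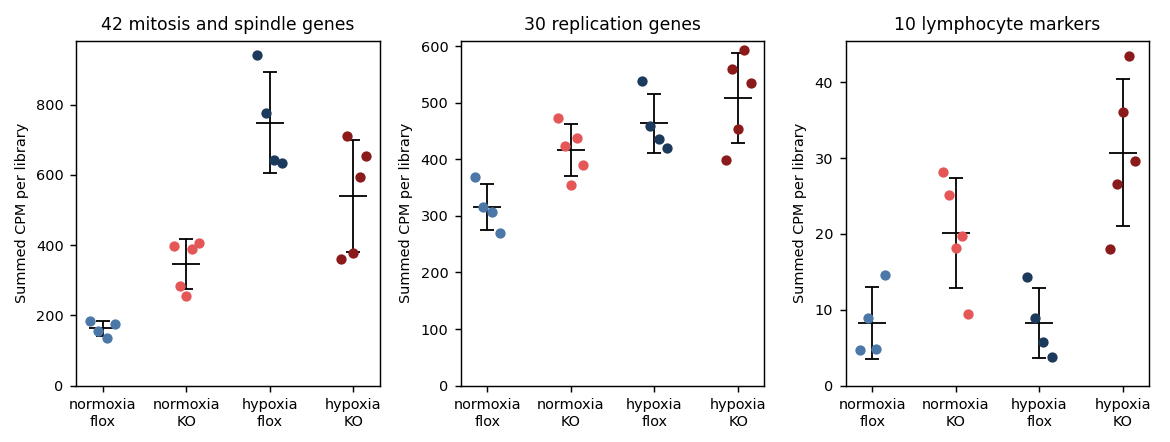
Summed CPM per library of the 42 mitosis and spindle genes, of 30 replication genes and of 10 lymphocyte markers in the 4 groups; each point is a library, and bars give the mean ± SD. Mitosis genes were higher in both hypoxia groups than in normoxia flox, and also higher in normoxia KO; lymphocyte markers were at 4.64 to 14.6 CPM in normoxia flox and 3.82 to 14.4 CPM in hypoxia flox, and higher in KO, at 9.51 to 28.2 CPM in normoxia and 17.99 to 43.5 CPM in hypoxia.

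In normoxia, loss of Pdcd10 from the endothelium went with higher mitotic transcripts. Of the 42 genes, 35 rose in KO against flox and 1, Ncaph, fell (edgeR quasi-likelihood test, Benjamini-Hochberg adjusted p under 0.05 over all genes); among all genes tested, 16.6% passed, 9.54% higher and 7.03% lower. The median log2 fold change of the 42 was 1.84, against -0.02 over all genes. For 32 genes every KO library was above every flox library, and for 1 every KO library was below; over all genes these shares were 8.59% and 6.09%.

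The kinases and cyclins that start mitosis rose with 1 exception. Cdk1, the kinase that drives entry, was at 0.992, 0.937, 0.391 and 1.26 CPM in the flox and 5.04, 3.90, 4.76, 5.43 and 7.33 CPM in the KO libraries. The groups did not overlap, and the log2 fold change was 2.56 ± 0.32 (SE; edgeR adjusted p = 3.78e-05). Its cyclin partners Ccnb1 (2.31 ± 0.42), Ccnb2 (2.30 ± 0.30) and Ccna2 (1.95 ± 0.32) rose as well. Foxm1, the transcription factor of late cell cycle genes, was at 4.85, 4.50, 4.25 and 3.59 CPM in flox and 10.3, 6.82, 5.56, 8.56 and 9.42 CPM in KO, a smaller difference without overlap (0.92 ± 0.21, edgeR adjusted p = 0.00584). Plk1, a kinase of spindle formation and exit, was at 0.731, 1.31, 0.868 and 1.47 CPM in flox and 2.70, 1.30, 2.38, 1.90 and 3.49 CPM in KO. Its groups overlapped through normoxia KO 2, and its change of 1.10 ± 0.36 only just passed (edgeR adjusted p = 0.0495). Aurka, the centrosomal Aurora kinase, did not pass (0.67 ± 0.24).

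All checkpoint and anaphase genes rose. Bub1b, the checkpoint protein BubR1, was at 1.30, 1.36, 1.48 and 1.79 CPM in flox and 4.48, 2.96, 4.20, 4.54 and 5.77 CPM in KO, a log2 fold change of 1.56 ± 0.25 (edgeR adjusted p = 0.000306). The checkpoint kinases Bub1 (2.46 ± 0.39) and Ttk (1.5 ± 0.36) moved the same way. Espl1, the separase that cuts cohesin, was at 1.2, 1.03, 1.39 and 1.51 CPM in flox and 6.11, 5.38, 7.005, 6.18 and 9.10 CPM in KO. Its libraries were far apart relative to their spread, and at 2.39 ± 0.19 it had the smallest p of the 42 (edgeR adjusted p = 5.86e-07). Cdc20, the activator of the anaphase-promoting complex, rose by 1.55 ± 0.17, its ubiquitin-conjugating enzyme Ube2c by 2.75 ± 0.35, and Pimreg, a mitotic regulator, by 3.66 ± 0.39.

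Within the chromosomal passenger complex the kinase and its small partners rose, and the scaffold did not pass. Aurkb, the kinase subunit, had 0, 3, 1 and 6 counts in the flox libraries, or 0, 0.141, 0.0434 and 0.245 CPM; the 0 in normoxia flox 1 allows up to 0.156 CPM by counting error. In KO it was at 1.83, 0.673, 2.04, 1.75 and 3.14 CPM, above every flox library, and its log2 fold change of 4.02 ± 0.64 was the highest of the 42 (edgeR adjusted p = 0.000256). So few counts make its size imprecise, as for Birc5 (survivin; 2, 1, 0 and 20 counts in flox, 2.98 ± 0.61) and Kif2c below. Cdca8, or borealin, rose by 1.98 ± 0.38. Incenp, the scaffold that holds the complex, was at 8.30, 9.80, 8.38 and 9.499 CPM in flox and 11.3, 10.1, 10.8, 11.8 and 12.4 CPM in KO; the libraries did not overlap, but the change of 0.32 ± 0.13 did not pass (edgeR adjusted p = 0.0955).

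Kinetochore and spindle genes rose without exception. Cenpe, the kinesin that carries chromosomes to the spindle equator, was at 1.67, 1.45, 1.48 and 2.08 CPM in flox and 7.24, 4.98, 3.18, 8.26 and 8.25 CPM in KO. Normoxia KO 4 was the lowest KO library and still above all flox libraries (1.93 ± 0.34, edgeR adjusted p = 0.000885). Cenpf (2.32 ± 0.45), Nuf2 (1.76 ± 0.40) and Ndc80 (0.75 ± 0.22), a kinetochore protein and a pair of microtubule-binding subunits, rose too. Hmmr, a spindle protein that binds microtubules, was at 0.313, 0.422, 0.434 and 0.571 CPM in flox and 3.36, 1.88, 2.42, 2.75 and 3.84 CPM in KO (2.68 ± 0.36, edgeR adjusted p = 6.65e-05). Even its lowest KO library was well above its highest flox library. Tpx2, which nucleates spindle microtubules, rose by 2.20 ± 0.34 and Prc1, which bundles them at the midzone, by 1.24 ± 0.26.

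Of the 8 other kinesins, motors of the spindle grouped apart from Cenpe, 7 rose. Kif20a, needed for cytokinesis, was at 1.25, 1.5, 1.26 and 1.39 CPM in flox and 4.64, 2.69, 4.20, 4.20 and 6.09 CPM in KO, without overlap (1.69 ± 0.24, edgeR adjusted p = 0.000132). The others that rose ranged from 1.00 ± 0.30 for Kif22 and 1.18 ± 0.36 for Kif15 through 1.74 ± 0.35 for Kif11, the motor that pushes spindle poles apart, 2.64 ± 0.42 for Kif4 and 2.76 ± 0.44 for Kif18b, to 3.04 ± 0.55 for Kif2c, which had 0, 3, 3 and 12 counts in flox. Kif23, the centralspindlin motor, was at 33.3, 23.5, 13.5 and 14.4 CPM in flox and 47.8, 35.3, 19.0, 45.4 and 30.2 CPM in KO. These groups overlapped, and its change of 0.75 ± 0.34 did not pass (edgeR adjusted p = 0.155).

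Chromosome structure genes divided. Ncapg, a condensin I subunit, was at 0.470, 0.281, 0.261 and 0.367 CPM in flox and 2.29, 1.44, 1.995, 2.90 and 3.04 CPM in KO (2.76 ± 0.41, edgeR adjusted p = 0.00018). Top2a, the topoisomerase that untangles chromatids, was at 1.62, 2.06, 1.65 and 6.73 CPM in flox and 20.9, 13.1, 11.9, 20.2 and 26.8 CPM in KO (2.61 ± 0.45, edgeR adjusted p = 0.000704). Mki67, the proliferation marker that coats mitotic chromosomes, was at 3.60, 2.53, 2.21 and 8.36 CPM in flox and 35.1, 23.1, 13.1, 30.6 and 42.9 CPM in KO (2.79 ± 0.45, edgeR adjusted p = 0.000478). Neither gene overlapped, although the neuron-marked normoxia flox 4 was the highest flox library for both. The condensin subunit Ncaph went the other way, at 18.1, 15.5, 25.6 and 14.2 CPM in flox and 8.51, 6.504, 6.75, 6.74 and 9.90 CPM in KO, and fell by 1.25 ± 0.20 on the log2 scale (edgeR adjusted p = 0.000304). Every KO library of Ncaph was below every flox library. Smc2 (0.26 ± 0.17) and Ncapd2 (0.08 ± 0.12), the core and another subunit of condensin, did not pass.

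In cytokinesis, Racgap1, the partner of Kif23 in centralspindlin, was at 2.61, 3.14, 2.69 and 5.91 CPM in flox and 10.1, 6.997, 10.6, 9.23 and 11.4 CPM in KO (1.42 ± 0.29, edgeR adjusted p = 0.00231). Ect2, the exchange factor it recruits, rose by 1.17 ± 0.30. Anln, the contractile ring protein anillin, was at 33.6, 12.0, 2.52 and 26.2 CPM in flox and 49.5, 40.0, 16.4, 67.8 and 18.1 CPM in KO. Its libraries ranged so widely within each group that a change of 1.05 ± 0.64 did not pass (edgeR adjusted p = 0.307).

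**Figure D3:**
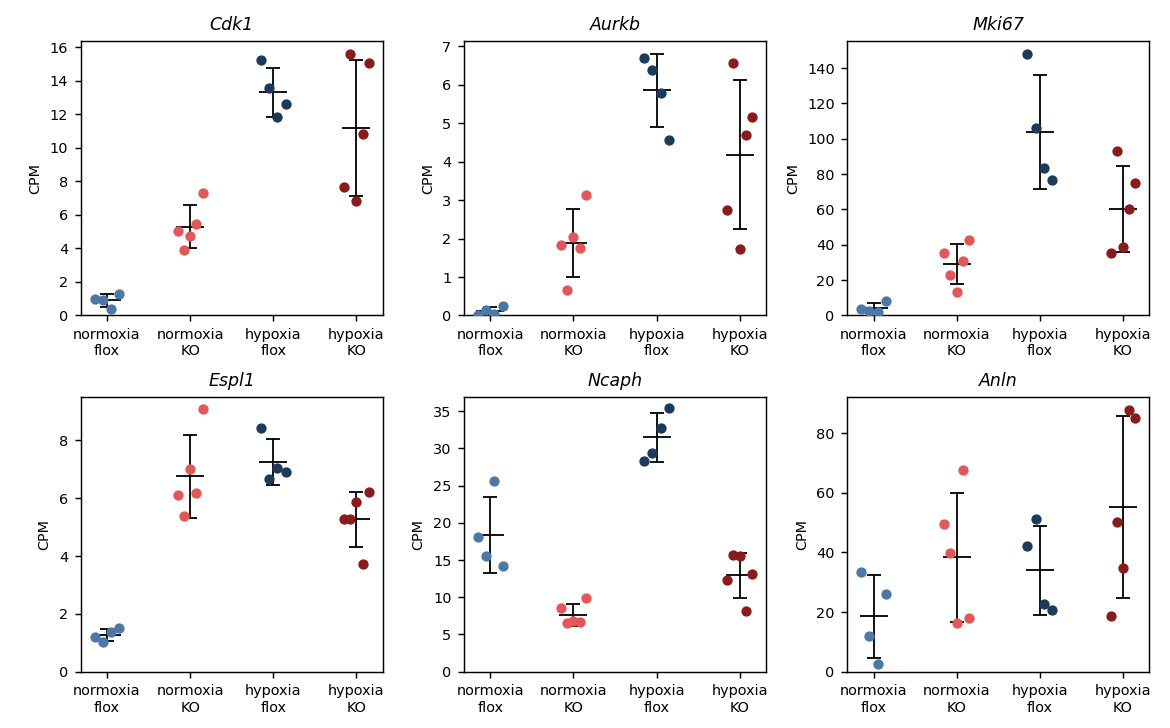
CPM in each library (points) with the group mean ± SD (bars) for 6 genes; each panel has its own axis from 0. Cdk1, Aurkb, Mki67 and Espl1 were lowest in normoxia flox, Ncaph was lower in KO than in flox under both oxygen levels, and Anln overlapped between all groups.

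Without the 2 neuron-marked libraries 34 of the 42 passed in normoxia (33 higher, 1 lower), and without the 3 libraries of mixed sex signal 33 did (32 higher, 1 lower). Of the normoxia replicates with the same number, only those of number 4 clearly deviated together. With numbers 1, 2 and 4 as a replicate block 25 passed (24 higher, 1 lower). That fit kept the hypoxia libraries but left out the unpaired normoxia flox 3, KO 5 and KO 6. The effects of pairing and of fewer libraries on the count can therefore not be told apart. Fitted on the 6 paired libraries alone, 9 passed (8 higher, 1 lower). The correlations were 0.579, 0.294 and 0.848 for numbers 1, 2 and 4. Flox 1 correlated nearly as much with a KO library of another number (0.550), and flox 2 more (0.392). Number 4 is the pair of neuron-marked libraries. In the block fit that kept the hypoxia libraries, the calls lost were those of Cenpe, Cenpf, Ect2, Foxm1, Kif11, Kif15, Kif22, Ndc80, Plk1, Prc1 and Ttk. Their edgeR adjusted p was 0.0518 to 0.377 there. Ect2, Kif15, Kif22, Ndc80 and Plk1 also lost their call without 1 library: Ect2 without normoxia flox 3 (edgeR adjusted p = 0.0569), Kif15 without any of normoxia flox 1, 2 or 3 or KO 1, 5 or 6 (up to 0.123), Kif22 without flox 1 or 2 or KO 5 or 6 (up to 0.107), Ndc80 without flox 2, 3 or 4 or KO 1 or 6 (up to 0.128), and Plk1 without flox 1, 2 or 3 or KO 1, 4, 5 or 6 (up to 0.144). The other 31 calls were kept with each library left out.

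With Pdcd10 intact, 7 days of hypoxia raised nearly the whole group. In hypoxia flox against normoxia flox, 39 of the 42 rose and none fell (0 lower also at an unadjusted p under 0.05 and by DESeq2), where 2.81% of all genes passed (2.34% higher, 0.462% lower). The median log2 fold change was 3.32, against -0.03 over all genes, and values ran from 0.78 to 5.63. For 40 genes each hypoxia library was above each normoxia library, against 5.36% of all genes (3.15% for the opposite order). This comparison shares its normoxia flox libraries with the genotype comparison above and its hypoxia flox libraries with that in hypoxia.

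Cdk1 was at 15.3, 13.6, 11.8 and 12.6 CPM in hypoxia flox, with the normoxia flox libraries at most 1.26 CPM (3.89 ± 0.33, edgeR adjusted p = 4.93e-06). Ccna2 (3.44 ± 0.34), Ccnb1 (3.37 ± 0.42), Ccnb2 (3.46 ± 0.30), Plk1 (2.30 ± 0.37), Foxm1 (2.03 ± 0.22) and Aurka (1.77 ± 0.25) rose with it. The checkpoint genes Bub1 (4.44 ± 0.38), Bub1b (2.99 ± 0.26) and Ttk (3.14 ± 0.36) rose, as did Espl1 (2.49 ± 0.20), Ube2c (3.52 ± 0.36) and Pimreg (4.98 ± 0.39). Cdc20 had the smallest of the anaphase changes, at 18.7, 16.6, 15.5 and 13.8 CPM (1.44 ± 0.17, edgeR adjusted p = 6.88e-05).

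The whole passenger complex passed here, Aurkb with the highest value of the 42. Aurkb reached 6.70, 6.39, 5.79 and 4.56 CPM, up from at most 6 counts a library (5.63 ± 0.61, edgeR adjusted p = 2.12e-05), and Incenp was at 27.7, 21.0, 20.01 and 19.8 CPM (1.30 ± 0.13, edgeR adjusted p = 2.12e-05). Birc5 rose by 4.33 ± 0.59 and Cdca8 by 3.27 ± 0.39. Mki67 reached 148.1, 106.3, 83.2 and 76.8 CPM (4.62 ± 0.50, edgeR adjusted p = 3.65e-05) and Top2a 75.1, 60.7, 51.4 and 47.7 CPM (4.26 ± 0.48, edgeR adjusted p = 5.1e-05). Hypoxia flox 2 was the highest of the 4 for both.

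Spindle, kinetochore and motor genes rose from 1.73 ± 0.23 for Ndc80 and 2.20 ± 0.31 for Kif22 to 4.34 ± 0.36 for Hmmr and 4.67 ± 0.43 for Kif18b. Among condensin genes, Ncapg rose most (4.48 ± 0.40), and Ncapd2 (1.00 ± 0.12) and Smc2 (0.90 ± 0.18), which did not pass in the normoxia genotype comparison, rose by about 1 log2 unit or less. In Ncaph the hypoxia flox libraries, at 28.3, 29.4, 32.7 and 35.5 CPM, were all above normoxia flox, but its change of 0.78 ± 0.21 did not pass (edgeR adjusted p = 0.0531). Nor did Kif23 (1.09 ± 0.36) and Anln (0.88 ± 0.66). All 39 calls were kept with each library left out and in every other setting tried, including without the libraries that stand apart. Y-linked genes exceeded Xist in 4 of 4 hypoxia flox but 1 of 4 normoxia flox libraries, so sex went partly along with oxygen here. With the Y-linked against Xist signal as a covariate, 40 passed, among them all 39.

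In KO endothelium the fold changes with hypoxia were smaller. In hypoxia KO against normoxia KO, 3 of the 42 rose and none fell, where 1.48% of all genes passed (0.713% higher, 0.77% lower). They were the kinase genes Cdk1 (1.07 ± 0.25, edgeR adjusted p = 0.0426), Bub1 (1.23 ± 0.27, 0.0345) and Ttk (1.18 ± 0.28, 0.0494). The fold change was positive in 40 of the 42, at a median of 0.76 against -0.03 over all genes. Incenp was the 1 gene with every hypoxia KO library above every normoxia KO library, against 1.69% of all genes. At an unadjusted p under 0.05, 35 members were higher and 1 lower, and DESeq2 called 16 higher and 0 lower. This comparison shares its libraries with both genotype comparisons.

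The hypoxia KO libraries were spread. Cdk1 was at 7.65, 15.6, 6.83, 10.8 and 15.1 CPM, so that hypoxia KO 1 and 3 lay near the highest normoxia KO library (7.33 CPM) and hypoxia KO 2 and 5 near or above the highest hypoxia flox library. Mki67 was at 35.2, 92.9, 38.8, 60.5 and 74.9 CPM in the same libraries, again lowest in hypoxia KO 1 and 3, and did not pass (1.06 ± 0.38, edgeR adjusted p = 0.216). Espl1, at 5.28, 5.28, 5.88, 3.73 and 6.22 CPM, and Cdc20, at 15.4, 20.8, 13.4, 14.2 and 16.1 CPM, had negative values that did not pass (-0.36 ± 0.16 and -0.12 ± 0.15).

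The 3 calls rest on single libraries. The count fell to 0 without any of normoxia KO 1, 2, 4 or 5 or hypoxia KO 2 or 5. It fell to 1 without hypoxia KO 4, a gene other than these 3. The count rose to 8 without hypoxia KO 1 and 9 without hypoxia KO 3. It was 1 without the 2 neuron-marked libraries and 2 without the 3 libraries of mixed sex signal, of which 1 was among the 3 calls.

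**Figure D4:**
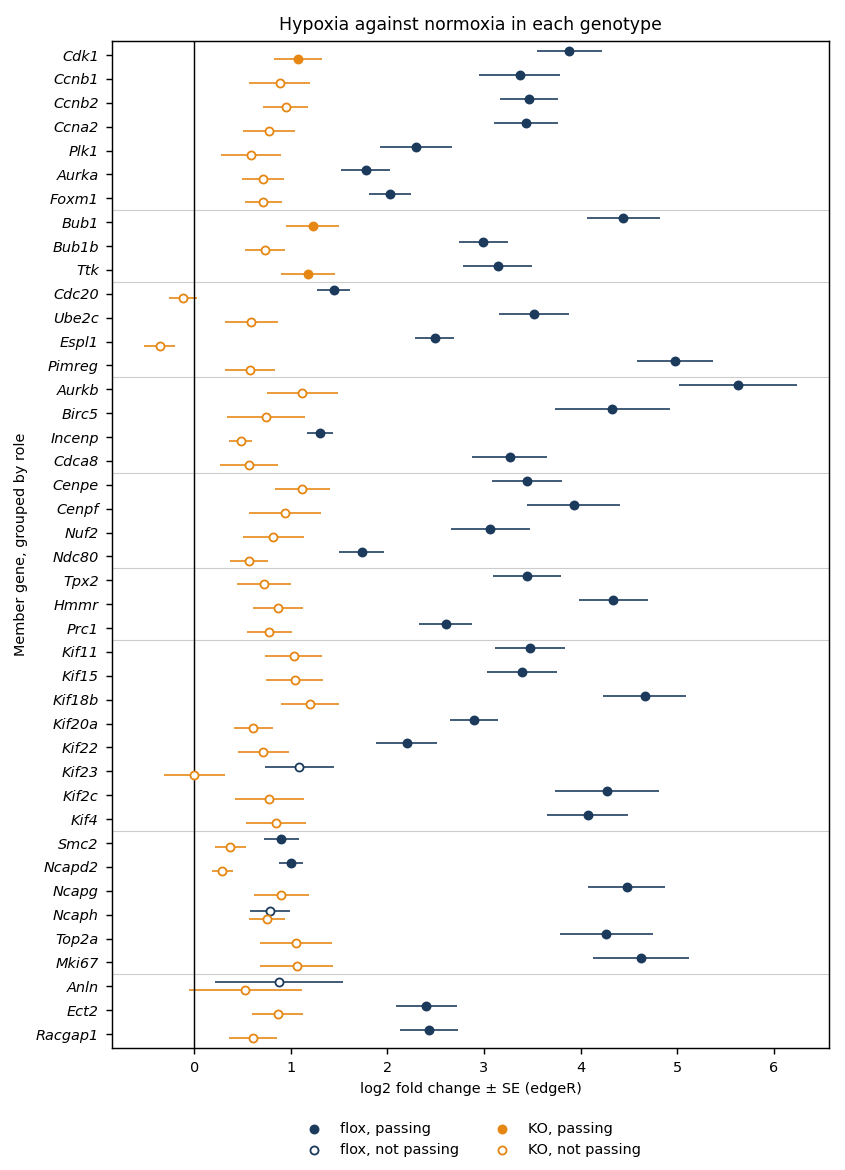
Log2 fold change ± SE of hypoxia against normoxia for the 42 genes, in flox (dark blue) and in KO (orange); filled points passed the test. The flox values lie between 0.78 and 5.63 and 39 are filled, while 3 of the KO points are.

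In hypoxia, a few of the genes were lower in KO and none passed as higher. In hypoxia KO against hypoxia flox, 6 of the 42 fell and none rose (0 higher also at an unadjusted p under 0.05 and by DESeq2), where 22.3% of all genes passed (11.4% higher, 11% lower), so the share of members that passed, in this direction only, was close to the background of lower genes. The fold change was negative in 41 of the 42, with Anln the exception (0.70 ± 0.63), and the median was -0.51 against -0.002 over all genes. Every KO library was below every flox library for 9 genes, against 10.3% of all genes. This comparison shares no library with the normoxia genotype comparison.

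Of the 6 condensin and chromosome structure genes, 2 fell. The condensin subunit Ncaph was at 12.3, 15.6, 15.5, 8.14 and 13.2 CPM in hypoxia KO against 28.3 CPM in the lowest hypoxia flox library, and fell by 1.28 ± 0.20 on the log2 scale (edgeR adjusted p = 0.000257). Ncapd2 was at 46.6, 48.4, 41.0 and 45.0 CPM in flox and 27.3, 35.4, 27.9, 26.0 and 28.9 CPM in KO, and fell by 0.64 ± 0.12 (edgeR adjusted p = 0.00116). Both sets of libraries were separate. The kinesin Kif15, at 10.7, 10.7, 7.58 and 8.08 CPM in flox and 2.91, 5.50, 2.69, 4.22 and 5.30 CPM in KO, fell by 1.17 ± 0.29 (edgeR adjusted p = 0.0089). Incenp, at 14.1, 19.3, 12.7, 16.5 and 16.02 CPM in KO, fell by 0.50 ± 0.12 (edgeR adjusted p = 0.00915).

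Bub1b (-0.70 ± 0.21, edgeR adjusted p = 0.0267) and Hmmr (-0.79 ± 0.26, 0.0381) were the other passing genes. Bub1b missed the threshold without hypoxia flox 2, KO 3 or KO 4 (edgeR adjusted p up to 0.079) and Hmmr without any hypoxia library other than KO 2 and KO 5 (up to 0.113). The remaining 36 did not pass, among them the condensin genes Ncapg (-0.81 ± 0.28) and Smc2 (-0.27 ± 0.17), Cdk1 (-0.25 ± 0.26), Mki67 (-0.78 ± 0.40), Top2a (-0.60 ± 0.39), Aurkb (-0.49 ± 0.37) and Cdc20 (-0.02 ± 0.16). Leaving out hypoxia KO 2, the KO library with the highest summed level, raised the count to 11, all lower.

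The count also moved with other settings. It was 14 without the 2 neuron-marked normoxia libraries and 13 without the 3 libraries of mixed sex signal, although none of these libraries belongs to the groups compared, and 11 with the immediate early gene score (10 stress-responsive genes such as Fos) as a covariate. It was 16 with limma on RPKM, and 2 with the leukocyte marker score as a covariate. With the Y-linked against Xist signal as a covariate it was 7, of which 5 were among the 6. Y-linked genes exceeded Xist in 4 of 4 flox and 1 of 5 KO libraries in hypoxia, so sex went partly along with genotype. The immediate early genes summed to 8130 ± 8580 CPM (SD, n = 4) in hypoxia flox and 22510 ± 10820 CPM (n = 5) in hypoxia KO. Incenp and Ncaph passed in every setting tried other than the single left-out libraries, and also with each of those left out.

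**Figure D5:**
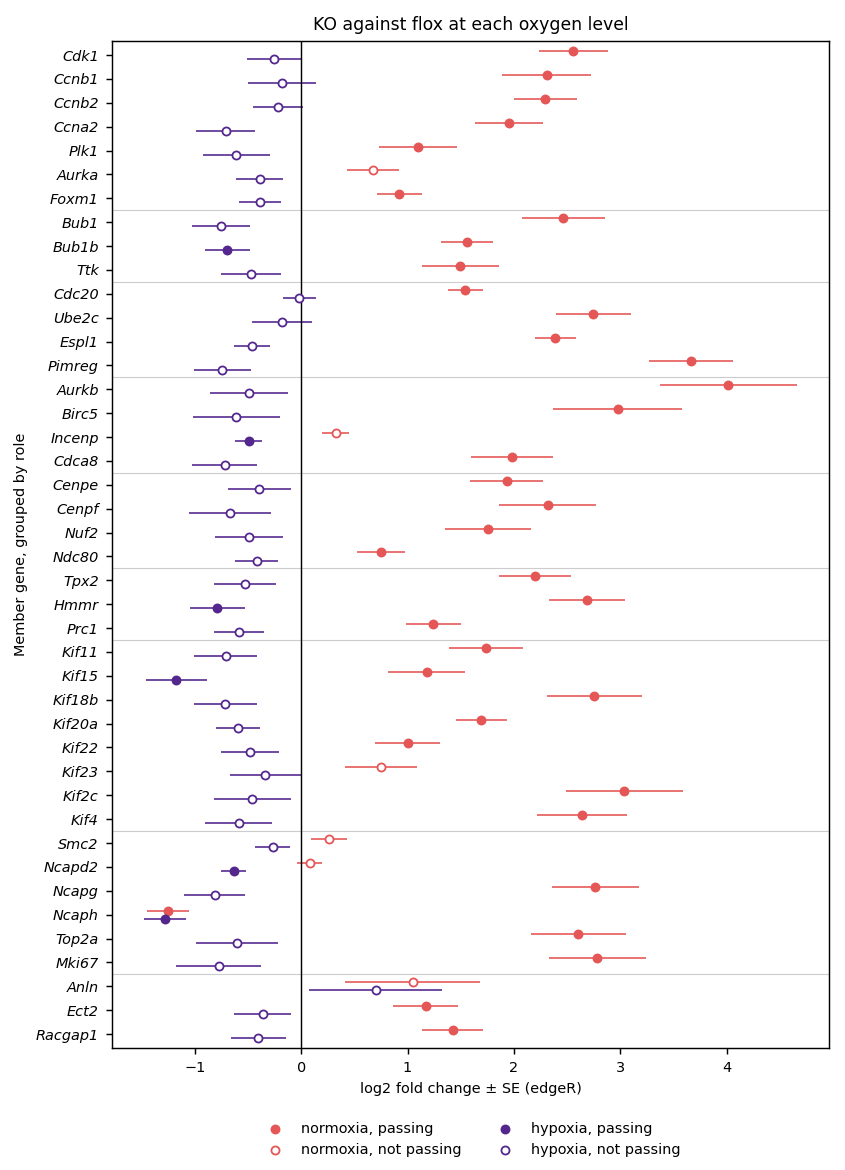
Log2 fold change ± SE of KO against flox for the 42 genes, in normoxia and in hypoxia; filled points passed the test. In normoxia 35 filled points lie above 0 and Ncaph below; in hypoxia 6 filled points lie below 0, and the value of Ncaph is near the same in both.

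The test of the difference between these genotype effects, the interaction, was past the threshold for 27 of the 42, all with a negative value. In all 27 the genotype fold change was positive in normoxia and negative in hypoxia, where 3 of them (Bub1b, Hmmr and Kif15) passed as lower; Kif15 was about as far below 0 in hypoxia (-1.17 ± 0.29) as above it in normoxia (1.18 ± 0.36), and Cdc20, near 0 in hypoxia, changed sign there in at least 1 other setting. Over all genes 0.439% passed, 77 genes, 0 of them with a positive value (for the members 0 positive also at an unadjusted p under 0.05 and by DESeq2, which called 33 negative); 27 of the 77 were members, 19 were on the list of other G2 and mitosis genes and 31 on neither. The median of the members was -2.40, against 0.01 over all genes, and all 42 values were negative. Espl1 had the smallest p (-2.85 ± 0.26, edgeR adjusted p = 8.77e-05), followed by Pimreg (-4.40 ± 0.48, 0.000628) and Hmmr (-3.47 ± 0.44, 0.00376). Aurkb (-4.51 ± 0.75, 0.00953) and Cdk1 (-2.81 ± 0.41, 0.00545) passed too. Ncaph, with -1.25 ± 0.20 in normoxia and -1.28 ± 0.20 in hypoxia, had an interaction of -0.03 ± 0.28 (edgeR adjusted p = 0.995).

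With the normoxia pairs as a replicate block, 3 of the 27 passed: Espl1 (-2.74 ± 0.27, edgeR adjusted p = 0.00416), Pimreg (-4.22 ± 0.54, 0.0259) and Cdc20 (-1.53 ± 0.22, 0.0485). That fit also left out the unpaired normoxia libraries. The other 24 kept a negative value at adjusted p from 0.12 to 0.472, for example Cdk1 at -2.32 ± 0.41 (0.15) and Mki67 at -3.11 ± 0.70 (0.272). With each library left out 16 of the 27 calls were kept, and the count was 16 without normoxia flox 1 or 2 and 17 without normoxia KO 6 or hypoxia flox 2. It was 30 without the 2 neuron-marked libraries and 24 without the 3 libraries of mixed sex signal.

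Other genes of the same phases were taken as a list of 60 and a list of 30. Of the 60 other G2 and mitosis genes, 31 rose and 1 fell in KO against flox in normoxia (median 1.19, where 9.54% of all genes were higher), among them Aspm (2.45 ± 0.35), a spindle pole gene, Dlgap5 (2.87 ± 0.41), a microtubule-binding gene, and Cdca5 (3.45 ± 0.54), the cohesin regulator sororin. Wee1, whose kinase restrains Cdk1, rose in KO both in normoxia (1.87 ± 0.18, edgeR adjusted p = 3.19e-06) and in hypoxia (1.62 ± 0.18, 1.6e-05), with an interaction of -0.25 ± 0.25 and no passing change with hypoxia in flox (0.29 ± 0.19). In hypoxia, 2 of the 60 rose in KO (Wee1, and Ube2s at 0.43 ± 0.13) and 7 fell. Among all genes 11.4% were higher and 11% lower, so the share that fell was near the background. The 7 included the condensin II gene Ncapd3 (-0.49 ± 0.07) and Fbxo5 (-1.14 ± 0.22), an inhibitor of the anaphase-promoting complex. They also included the cytokinesis kinase Cit (-0.92 ± 0.21) and the centromere chaperone Hjurp (-0.44 ± 0.12). Hypoxia in flox raised 42 and lowered none (median 1.999), hypoxia in KO raised 2 (Dsn1 at 0.54 ± 0.11 and Mybl2 at 0.83 ± 0.19), and 19 passed in the interaction. The shares over all genes were 2.34% and 0.713% higher with hypoxia in flox and KO, and 0.439% in the interaction.

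Replication and S phase genes, of which 29 of 30 were tested, changed in fewer members. In normoxia 9 rose in KO and none fell (median 0.33, highest 2.31), where 9.54% of all genes were higher. The 4 with the smallest p were Uhrf1, which maintains DNA methylation (1.72 ± 0.13, edgeR adjusted p = 3.14e-07), Pole (1.75 ± 0.32), the leading-strand polymerase, Cdc6 (1.68 ± 0.34) and Cdt1 (1.15 ± 0.26), a pair of origin licensing factors. In hypoxia 1 rose in KO, Uhrf1 (0.41 ± 0.12), where 11.4% of all genes were higher. Hypoxia in flox raised 18 and lowered none (median 0.76), where 2.34% of all genes were higher. Hypoxia in KO raised 1, Chaf1a, a histone chaperone gene (0.66 ± 0.16), where 0.713% of all genes were higher. The interaction passed for Uhrf1 (-1.31 ± 0.18), against 0.439% of all genes.

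The 42 genes also varied together among libraries of one group. After subtracting group means, the median correlation of log2 CPM over the 861 gene pairs was 0.62 across 18 libraries (range -0.56 to 0.97), and 36 genes correlated above 0.5 with the mean of the other members. Kif4 was highest at 0.95, and Ncaph (-0.10), Kif23 (0.29), Espl1 (0.30), Ncapd2 (0.37), Anln (0.42) and Smc2 (0.44) were lowest. The members' mean correlated at 0.99 with that of the other G2 and mitosis genes and at 0.79 with that of the replication genes. The 8 genes outside the group whose deviations were most like the members' mean were Knstrn (0.93), Aspm, Diaph3, Ckap2, Tacc3, Shcbp1, Troap and Trip13 (0.90). All these values share the same libraries, depth and preparation.

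Markers of some other cells differed between groups as well. Lymphocyte markers summed to 4.64 to 14.6 CPM in normoxia flox, 9.51 to 28.2 in normoxia KO, 3.82 to 14.4 in hypoxia flox and 17.99 to 43.5 in hypoxia KO; of 9 tested, 4 rose in KO in normoxia, 7 rose in hypoxia, and none passed in an oxygen comparison. In hypoxia flox, where the 42 genes were highest, neutrophil markers summed to 0.461 to 1.92 CPM, against 0.781 to 1.41 in normoxia flox, and none of the 9 microglia and macrophage markers passed against it (3.97 to 26.6 against 4.47 to 126 CPM). Neutrophil markers rose in KO in hypoxia in 3 of 3 tested, with hypoxia KO 4 at 100.9 CPM and the other 4 libraries at most at 4.54 CPM. Pericyte markers rose in KO in 3 of 8 in normoxia and 5 of 8 in hypoxia, and smooth muscle markers fell in 5 of 6 in each. Erythroid markers, at 1361 to 2730 CPM in normoxia flox and 3542 to 4830 CPM in hypoxia flox, separated without overlap, though none of 5 passed. Markers of neurons, astrocytes, oligodendrocytes, fibroblasts and microglia had no passing member in the normoxia genotype comparison or with hypoxia in either genotype. In hypoxia, KO against flox, 1 of 8 neuron and 1 of 7 astrocyte markers fell, and 1 of 8 oligodendrocyte, 1 of 5 fibroblast and 2 of 9 microglia and macrophage markers rose. Of 8 endothelial markers 1 rose and 1 fell in each genotype comparison and none passed with hypoxia. Over all genes, 9.54% were higher and 7.03% lower in KO in normoxia, and 11.4% higher and 11% lower in hypoxia. Single passing genes in lists this short are near those shares. None of 10 immediate early genes passed in any comparison. No marker list had a gene at 0 in all 18 libraries. With a leukocyte marker score as a covariate 32 members passed in normoxia (31 higher, 1 lower), 2 in the hypoxia genotype comparison (both lower), 40 in hypoxia against normoxia in flox and 28 in the interaction; the part of the other markers in these results was not tested.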

How the data were processed

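Endothelial RNA was sequenced with a stranded kit for mRNA in 18 libraries. Per the submitters' processing notes, the authors worked with HISAT2, edgeR and build GRCm39; versions, annotation, counting tool and strand setting are not given in the sources used here. The deposited counts are whole numbers for 57010 Ensembl genes, summing to 17.9 to 31.2 M per library. The deposited RPKM carry 1 decimal; RPKM here were recomputed from the counts with the gene length that both tables imply. Symbols came from GENCODE M21 (GRCm38), used for names only, which matched 52029 identifiers (91.3%); those without one held 0.723% of counts. Promoters are RefSeq's, GRCm38.p6. Without a stated strand setting, overlapping antisense genes cannot be told apart.

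After filterByExpr by group and TMM scaling, 1 quasi-likelihood model of all 18 libraries was fitted with edgeR 4.0.16 in R 4.3.3 (glmQLFit with robust=TRUE and legacy=FALSE). Calls are at a Benjamini-Hochberg adjusted p under 0.05 over the 17531 genes tested. The SE was taken as the size of the log2 fold change over the root of its F statistic. Library sizes for CPM include the TMM factor, and log2 CPM add a prior count of 2. The RPKM, including those given to limma, were not scaled by TMM here. The fit was tested on simulated data. No 2 libraries held identical values. The upper limit given for a count of 0 covers counting error only.

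Alternatives were RLE scaling, no filter, a stricter filter (1 CPM in 4 libraries), DESeq2 1.42.0, the legacy fit, only the 2 groups compared, limma 3.58.1 on log2 RPKM plus 0.1, replicate blocks, 3 covariates (immediate early score, Y-linked against Xist signal, leukocyte score), the libraries that stand apart left out, and each library left out. The block over the normoxia pairs kept the hypoxia libraries and left out the unpaired normoxia flox 3, KO 5 and KO 6. The block over the 6 paired normoxia libraries alone was added after seeing the data. Deviations of same-numbered normoxia libraries correlated at 0.579, 0.294 and 0.848 for numbers 1, 2 and 4. These libraries were treated as paired for that reason alone, since the labels do not say what a number marks. Hypoxia numbers 2 to 5 gave 0.158, 0.040, -0.183 and -0.339 and were not paired in the blocks over the normoxia pairs. The replicate block over all groups did treat equal numbers as the same block, in hypoxia and across oxygen levels too, without such correlations in hypoxia.

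Named are all 42 genes, with values per library for the gene of smallest normoxia p in each role and for Mki67, Top2a, Cdk1, Plk1, Aurkb and Foxm1; up to 4 genes of each related list per genotype comparison; and the 8 genes of most similar deviations. Values per library of the genes that did not follow the group were added after seeing them. The members and all lists were chosen with earlier results of these data known.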

Additional observations from a re-analysis of the deposited data

Results flagged for a closer look

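Among the 168 sets of a gene and a group, 10 had a library set apart from the rest by Dixon's criterion, where chance gives about 1 in 20. Hypoxia flox 2 was the high one for Incenp (4.80 log2 CPM, next 4.40), Cdca8 (3.06, next 2.66), Nuf2 (2.92, next 2.57) and Kif18b (3.17, next 2.89), and it had the highest summed level of the 42 genes. Normoxia flox 4, which carried neuronal transcripts, was high for Cdca8 (0.68, next -0.96), Cenpf (1.80, next 0.17) and Top2a (2.77, next 1.11). Low libraries were hypoxia flox 5 for Aurka (2.26, next 2.70), hypoxia KO 1 for Kif23 (4.44, next 5.21) and normoxia KO 4 for Smc2 (3.71, next 4.48).

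For 27 genes the genotype effect differed between hypoxia and normoxia by the edgeR interaction test, on the log2 scale by -2.81 in Cdk1, -2.52 in Ccnb2, -2.66 in Ccna2, -3.22 in Bub1, -2.26 in Bub1b, -1.56 in Cdc20, -2.93 in Ube2c, -2.85 in Espl1, -4.40 in Pimreg, -4.51 in Aurkb, -3.59 in Birc5, -2.70 in Cdca8, -2.33 in Cenpe and -2.99 in Cenpf. It differed by -2.72 in Tpx2, -3.47 in Hmmr, -1.83 in Prc1, -2.45 in Kif11, -2.35 in Kif15, -3.47 in Kif18b, -2.29 in Kif20a, -3.50 in Kif2c, -3.23 in Kif4, -3.58 in Ncapg, -3.21 in Top2a, -3.56 in Mki67 and -1.83 in Racgap1.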

How the results depend on the processing

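No called fold change of the 42 genes changed sign under any setting. The count of members passing in hypoxia against normoxia in flox was 39 to 40 with single libraries left out; in the normoxia genotype comparison it was 32 to 37 (36 with all libraries), and 9 (8 higher, 1 lower) with a replicate block on the 6 paired normoxia libraries alone. In the hypoxia genotype comparison, 6 became 16 with limma on RPKM, 11 with the immediate early score, 2 with the leukocyte score, 14 without the 2 neuron-marked libraries, 13 without the 3 libraries of mixed sex signal, and 4 to 11 with single libraries left out. In hypoxia against normoxia in KO, 3 became 1 without a filter, with the leukocyte score or without the neuron-marked libraries. With the leukocyte score that gene was none of the 3. The count became 5 with the stricter filter, 16 with DESeq2 and 9 with the immediate early score. It was 0 with the legacy fit, only the 2 groups, limma or the replicate block over all groups, and 0 to 9 with single libraries left out. In the interaction, 27 became 2 with the replicate block over all groups, 3 with the block over the normoxia pairs, and 16 to 32 with single libraries left out.

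Over all genes, the normoxia genotype count of 2905 became 1791 with the replicate block over all groups, 1751 with the normoxia pairs as block, 701 on the 6 paired libraries and 2085 to 3645 with single libraries left out. The hypoxia genotype count of 3916 became 876 with the leukocyte score and 2664 to 4499 with single libraries left out. Hypoxia against normoxia gave 492 in flox (833 with DESeq2, 945 with the immediate early score) and 260 in KO (617 with DESeq2, 107 on the 2 groups, 43 with the replicate block over all groups, 557 with the immediate early score, 53 to 523 with single libraries left out). The interaction count of 77 became 145 with DESeq2, 3 with the replicate block over all groups, 5 with the normoxia pairs as block, and 28 to 98 with single libraries left out. The cause of these changes was not tested. Precision in normoxia flox is limited by few counts of Aurkb, Birc5 and Kif2c.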
